A study of Mus musculus with 10 samples.

Results

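The 9 genes described here mark B cells and the antibody-secreting plasma cells that develop from them: Ms4a1, Cd79a, Cd79b, Cd22, Blk, Fcrla, Cr2, Jchain and Mzb1. They were taken by symbol from a table of 59408 gene models, 23454 of which carry a symbol, and each symbol met 1 model. The table holds bulk RNA sequencing of whole livers from 10 wild type C57BL/6 mice, each liver 1 library, all collected at day 35. The 4 controls were untreated. The 3 PBC mice modelled autoimmune primary biliary cholangitis: they were immunised with 100 µg of 2-octynoic acid coupled to bovine serum albumin at days 0, 14 and 28, first in complete and later in incomplete Freund's adjuvant, and received 2 µg of α-galactosylceramide, an NKT cell ligand, with the first pair of injections. The 3 PSC mice modelled non-autoimmune primary sclerosing cholangitis: their food held 0.089% DDC (3,5-diethoxycarbonyl-1,4-dihydrocollidine, a compound that injures bile ducts) for 2 weeks, then none for 1 week, then again for 1 week. Since no control received adjuvant, glycolipid or albumin conjugate, the antigen and the adjuvant cannot be told apart in the PBC livers.

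B cells recognise antigen through a surface immunoglobulin that signals through the CD79A and CD79B chains. Coreceptors and kinases tune this signal: the complement receptor CR2 lowers the threshold of activation, CD22 restrains it, and the Src-family kinase BLK acts just below the receptor. After activation, some B cells become plasma cells, which lose much of the surface programme and devote their secretory pathway to antibody, with the J chain joining IgM and IgA into polymers. The healthy liver holds few B cells, and intestinal and hepatic plasma cells supply IgA that is carried into bile. In bulk tissue, fewer cells of a type and less RNA per cell cannot be told apart.

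RefSeq promoter windows, from 250 bases before to 50 after a RefSeq start site, matched 5 of the 9 genes (Cd22, Cd79a, Cr2, Fcrla and Jchain) and not Ms4a1, Cd79b, Blk or Mzb1. The windows of Cd22, Cd79a and Jchain are shown because these genes were called higher in the PBC livers. They are written 5′ to 3′ along the gene's strand on GRCm38 (mm10), Cd22 at chr7:30878979-30879278 (minus strand), Cd79a at chr7:24897247-24897546 (plus strand) and Jchain at chr5:88527848-88528147 (minus strand). Capitals mark a match to the palindrome bound by the B cell factor EBF, searched as CCCNNGGG with T before it and A after it.
Cd22: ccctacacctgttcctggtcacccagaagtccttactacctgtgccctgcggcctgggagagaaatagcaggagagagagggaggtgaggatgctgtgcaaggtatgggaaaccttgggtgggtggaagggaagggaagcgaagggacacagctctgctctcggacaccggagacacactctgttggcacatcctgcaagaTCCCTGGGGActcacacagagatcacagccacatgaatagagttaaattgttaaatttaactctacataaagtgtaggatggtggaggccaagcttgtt
Cd79a: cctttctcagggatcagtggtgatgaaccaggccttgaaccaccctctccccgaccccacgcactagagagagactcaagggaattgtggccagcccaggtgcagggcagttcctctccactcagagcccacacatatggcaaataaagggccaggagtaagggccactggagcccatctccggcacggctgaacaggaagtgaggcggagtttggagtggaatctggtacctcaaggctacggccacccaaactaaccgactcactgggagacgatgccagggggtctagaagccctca
Jchain: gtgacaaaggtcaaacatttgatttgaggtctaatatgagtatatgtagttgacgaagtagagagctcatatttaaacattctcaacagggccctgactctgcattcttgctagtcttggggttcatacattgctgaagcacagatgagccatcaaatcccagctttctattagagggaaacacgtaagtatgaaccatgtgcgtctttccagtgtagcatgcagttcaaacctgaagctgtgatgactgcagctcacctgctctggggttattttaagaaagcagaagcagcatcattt
Both strands were searched. The EBF palindrome was present in 1 of the 5 windows, that of Cd22, and in 0.904% of 32851 mouse promoter windows of the same length. In Cd22 its first base lay 49 bases before the RefSeq start site of the window. The Cd22 gene model used for the levels reaches further upstream, to chr7:30880342, so the match lies inside that model. The core CCCNNGGG alone, which lies inside the palindrome, was present in Cd22 alone of the 5 and in 13.7% of all windows. The octamer ATGCAAAT of immunoglobulin and B cell promoters had no match in the 5 windows, against 1.74% of all, and the XBP1 element TGACGTGG had none, against 0.676%. Only these exact letters were searched, so a window without a match, such as that of Cd79a, may still hold a site that departs from them. These matches are descriptions of the letters and not evidence of binding.

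Levels are normalised reads per gene model, deposited by the authors. Changes are differences in log2(normalised reads + 1), with SE and with the Benjamini-Hochberg adjusted p of limma over 18390 tested models. A gene was called at an adjusted p under 0.05. Depth was 38272051 to 95422206 recovered reads, lowest in control 3 and highest in PSC 11. The members are low in liver, with 2 to 806 reads each per library, so Blk and Cr2 (2 to 35 and 2 to 26 reads) are the least precise. PBC 7 stood apart with 4.24% of its reads on models of ribosomal repeats, where no other library had more than 0.831%, and control 2 with 13.7% on mitochondrial models, against at most 8.67%. All 6 hepatocyte genes checked summed to at least 8744520 normalised reads in every liver. Nothing beyond the labels tells whether mice of a group shared a cage or litter. The p-values of limma set each group difference against the spread between these mice. That spread was pooled over all groups and drawn towards that of models at a similar level.

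All 9 members passed the filter on low values. In PBC against control, 4 of 9 were called higher (Cd22, Jchain, Cd79a and Mzb1) and 0 lower, where 7.60% of all tested models were called higher and 2.34% lower (9.94% in all). In PSC against control, Jchain was called higher and Ms4a1 and Blk lower, where 8.25% of all models were called higher and 6.48% lower (14.7% in all). Between the models, Cd79a, Cd79b and Cd22 were called higher in PBC than in PSC and 0 members lower, where 1.11% and 1.13% of all models were called in those directions (2.24% in all). On reads recovered from the normalised values, edgeR called 8.54%, 14.2% and 2.26% of models in the 3 comparisons, and DESeq2 14.0%, 20.7% and 6.60%; their calls of members are given where they differ. Median log2 changes of the 9 members were 1.36 in PBC against control, -0.23 in PSC against control and 1.64 in PBC against PSC, beside 0.01, 0.06 and 0.02 over all models tested. Comparisons of PBC and of PSC with control share the 4 control livers, and the PBC against PSC contrast is the test of whether the changes differed.

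**Figure D1:**
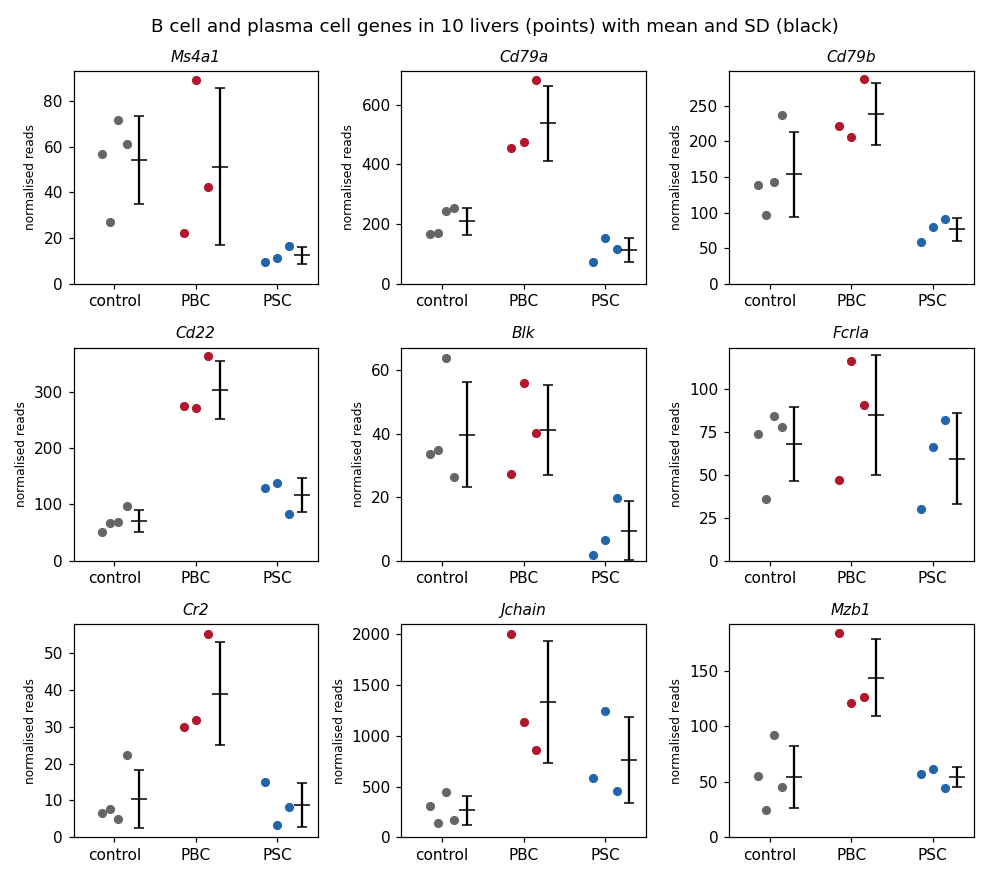
Normalised reads (vertical axis, linear, from 0) of the 9 genes in each of 10 livers; every point is 1 liver of the control, PBC or PSC group, and the black bar beside each group is its mean and SD. The 3 PBC livers lie above all 4 controls for Cd79a, Cd22, Cr2, Jchain and Mzb1, and the 3 PSC livers below all 4 controls for Ms4a1, Cd79a, Cd79b and Blk.

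The receptor chains Cd79a and Cd79b were highest in PBC livers and lowest in PSC livers. Values of each liver are given in the order control 1, 2, 3 and 4, PBC 7, 8 and 9, and PSC 11, 13 and 14. Cd79a (GSMG0034166, chr7:24897510-24902197), the Ig-alpha signalling chain, was at 168, 171, 243 and 255, then 455, 476 and 683, then 73.2, 154 and 115 normalised reads. No pair of groups overlapped: every PBC liver was above every control, and every PSC liver below. Cd79a rose by 1.36 in PBC (SE 0.30, adjusted p = 0.0125), a call that ended without PBC 9 (1.18, adjusted p = 0.0750). In PSC its change was -0.91 (SE 0.30) and missed the threshold (adjusted p = 0.0568), which it passed in 5 of 20 alternative settings, among them without PBC 8 (adjusted p = 0.0473), without PSC 13 (adjusted p = 0.0496) and with DESeq2 on the recovered reads (adjusted p = 0.0245). PBC exceeded PSC by 2.27 (SE 0.32, adjusted p = 0.00296), and no alternative setting ended that call.

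Cd79b (GSMG0007511, chr11:106311341-106314670), the partner Ig-beta chain, was at 139, 96.3, 143 and 237, then 221, 206 and 288, then 59.1, 79.3 and 90.4 normalised reads. PBC livers overlapped only with control 4, the highest control, whereas all 3 PSC livers were below all controls. Its change in PBC was 0.69 (SE 0.32, adjusted p = 0.192). In PSC it was -0.95 (SE 0.32, adjusted p = 0.0631), and this passed the threshold in 4 settings, among them without control 2 (-1.15, adjusted p = 0.0363), with edgeR (adjusted p = 0.0497) and with DESeq2 (adjusted p = 0.0180). Cd79b was higher in PBC than in PSC by 1.64 (SE 0.34, adjusted p = 0.0253). That call ended when PBC 7, PBC 9, PSC 11, PSC 13 or PSC 14 was left out, with changes of 1.47 to 1.77 and adjusted p of 0.0633 to 0.09995. The ratio of Cd79a to Cd79b was 2.06 to 2.37 in PBC livers, above the 1.08 to 1.77 of controls and the 1.24 to 1.94 of PSC livers.

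Ms4a1 encodes CD20, a membrane protein of B cells that is lost on plasma cells. It was at 57.0, 27.0, 71.5 and 61.1, then 22.4, 89.2 and 42.3, then 9.38, 11.3 and 16.4 normalised reads. PSC livers were below every other liver, and PBC livers reached both above and below the controls. Ms4a1 fell by 1.99 on the log2 scale in PSC (SE 0.52, adjusted p = 0.0226). The call ended without control 1, control 4, PSC 11, PSC 13 or PSC 14 (changes of -2.20 to -1.83, adjusted p of 0.0509 to 0.0859). In PBC the change was -0.21 (SE 0.52, adjusted p = 0.838), and it was 0.27 without PBC 7, the lowest of that group. PBC against PSC gave 1.79 (SE 0.55, adjusted p = 0.118), which DESeq2 called (2.06, adjusted p = 0.0200). The Ms4a1 model (GSMG0020114, chr19:11249675-11345117) spans the neighbours Ms4a5 and Ms4a7, which have models of their own. Ms4a5 was at 0 in all livers, and Ms4a7, a macrophage gene, went from 91.1 to 282 in controls to 1261 to 1844 normalised reads in PSC, the opposite direction to Ms4a1.

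Cd22 and Blk, which act on the receptor's signal, did not follow one pattern. Cd22 (GSMG0035761, chr7:30865402-30880342), the inhibitory lectin that recruits phosphatases, was at 50.5, 66.8, 69.0 and 97.2, then 276, 272 and 364, then 129, 139 and 82.2 normalised reads. PBC livers were above all others, and PSC 11 and PSC 13 were above all controls while PSC 14 was within their range. Cd22 rose by 2.11 in PBC (SE 0.31, adjusted p = 0.000960), a call that no setting ended. In PSC it changed by 0.71 (SE 0.31, adjusted p = 0.135), whereas the PSC estimates of Cd79a, Cd79b, Ms4a1 and Blk were negative. Limma with quality weights per library called it there (1.00, adjusted p = 0.00578). Cd22 was higher in PBC than in PSC by 1.40 (SE 0.33, adjusted p = 0.0428). Leaving out any 1 PBC liver, any 1 PSC liver or control 2 ended that call, as did scaling to equal totals (adjusted p = 0.0786) and no filter (adjusted p = 0.0662); the largest adjusted p was 0.230, without PSC 14 (1.17).

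Blk (GSMG0012522, chr14:63372837-63417187) was at 33.7, 34.7, 63.9 and 26.4, then 27.4, 55.8 and 40.2, then 1.88, 6.47 and 19.7 normalised reads. PSC livers were below all others, on 2, 4 and 12 reads, and PBC livers lay within the range of controls. Blk fell by 2.33 on the log2 scale in PSC (SE 0.63, adjusted p = 0.0259). The call ended without control 1 (adjusted p = 0.0553), control 3 (adjusted p = 0.0539), PSC 13 (adjusted p = 0.0721) or PSC 11 (-1.63, adjusted p = 0.111). Its change in PBC was 0.07 (SE 0.63, adjusted p = 0.957), and PBC against PSC gave 2.41 (SE 0.67, adjusted p = 0.0829), which DESeq2 called (adjusted p = 0.0356).

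Fcrla, an Fc receptor-like protein kept inside B cells, was not called in any comparison. The model (GSMG0002438, chr1:170917575-170927583) was at 73.8, 35.9, 84.3 and 77.8, then 47.3, 116 and 91.0, then 30.0, 66.3 and 82.2 normalised reads, and all 3 groups overlapped. Changes were 0.29 in PBC (SE 0.45, adjusted p = 0.724), -0.23 in PSC (SE 0.45, adjusted p = 0.768) and 0.53 between them (SE 0.49, adjusted p = 0.575).

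Cr2, which encodes the complement receptor CD21 of mature B cells and follicular dendritic cells, was higher in each PBC liver than in any other liver but missed the threshold. This model (GSMG0002670, chr1:195136811-195176715) was at 6.48, 7.70, 5.11 and 22.2, then 29.8, 31.9 and 55.0, then 15.01, 3.23 and 8.22 normalised reads. Control 4 was far above the other controls. The change in PBC was 1.97 (SE 0.65, adjusted p = 0.0734), and it passed without control 4 (2.39, adjusted p = 0.0437), with a pseudocount of 5 (1.59, adjusted p = 0.0463) and with quality weights (adjusted p = 0.0299). PSC gave -0.20 (SE 0.65, adjusted p = 0.869), and PBC against PSC 2.17 (SE 0.70, adjusted p = 0.130), which quality weights called (2.48, adjusted p = 0.0414).

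Of the plasma cell genes, Jchain rose in both models and Mzb1 in PBC. Jchain (GSMG0030703, chr5:88519810-88527897) was at 312, 137, 450 and 175, then 2004, 1136 and 859, then 587, 1245 and 454 normalised reads. All 6 cholangitis livers were above all 4 controls, with PSC 14 only just above control 3. Jchain rose by 2.37 in PBC (SE 0.44, adjusted p = 0.00467), a call that no setting ended. It rose by 1.52 in PSC (SE 0.44, adjusted p = 0.0353), but the call ended without control 1, control 2, control 4, PSC 11, PSC 13 or PSC 14. Without PSC 13 the PSC change was 1.09 (adjusted p = 0.158), and the other 5 gave 1.25 to 1.82 with adjusted p of 0.0509 to 0.0847. PBC and PSC livers overlapped, at 0.85 (SE 0.47, adjusted p = 0.346).

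Mzb1 encodes a chaperone of the endoplasmic reticulum that assists immunoglobulin assembly in marginal zone B cells and plasma cells. The model (GSMG0018841) was at 55.7, 24.4, 92.0 and 45.8, then 184, 121 and 127, then 57.2, 61.5 and 44.4 normalised reads. PBC livers were above all others, and PSC livers fell within the controls' range. Mzb1 rose by 1.51 in PBC (SE 0.41, adjusted p = 0.0355), the least stable of the 4 PBC calls: 11 of 20 settings ended it, with adjusted p of 0.0502 to 0.130. Of the 10 single libraries, leaving out any but control 3 and PBC 8 ended it, and the highest value was without PBC 7 (1.32, adjusted p = 0.130). Its PSC change was 0.13 (SE 0.41, adjusted p = 0.860), and PBC against PSC gave 1.38 (SE 0.44, adjusted p = 0.126), which DESeq2 called (adjusted p = 0.0360).

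**Figure D2:**
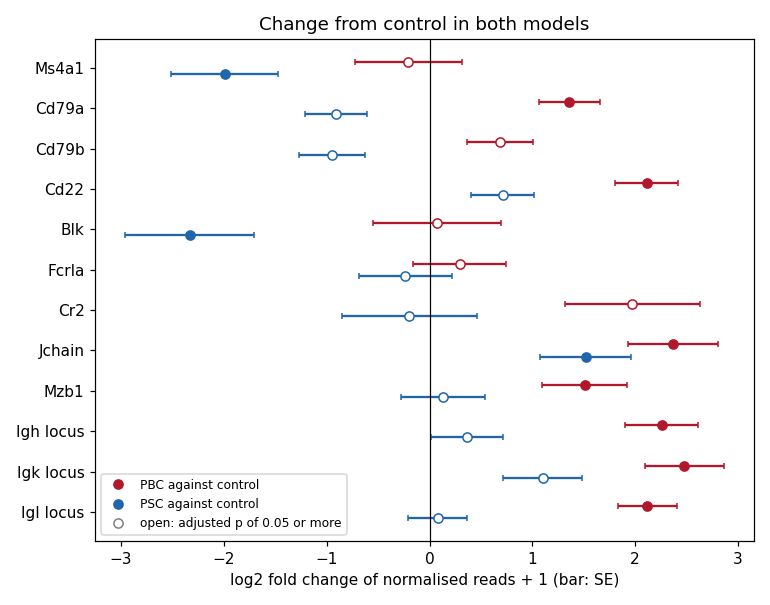
Log2 fold change of normalised reads + 1 against control (horizontal axis) for the 9 genes and 3 immunoglobulin locus models, PBC in red and PSC in blue; bars are the SE from limma and filled points have an adjusted p under 0.05. Filled PBC points lie to the right of 0 (Cd79a, Cd22, Jchain, Mzb1 and the 3 loci), and filled PSC points lie on both sides (Ms4a1 and Blk left, Jchain right).

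Every PBC liver was above every control for 5 of 9 members and below for 0, where 12.7% and 6.89% of all tested models had that separation. In PSC, 1 member had every liver above the controls and 4 had every liver below, where 15.9% and 15.6% of all models did. Every PBC liver was above every PSC liver for 7 members, all but Fcrla and Jchain, and below for 0, where 14.6% and 12.6% of all models were. Per kilobase of annotated exon, control means ran from Cd79a at 144 normalised reads per kb through Cd79b (108), Jchain (107), Mzb1 (44.8), Fcrla (38.9), Blk (14.7), Cd22 (14.1) and Ms4a1 (8.75) to Cr2 (1.28). In PBC livers the mean of Jchain (530 per kb) was above that of Cd79a (369) with overlapping livers, and in PSC livers Jchain was at 303 against 78.2 for Cd79a with no overlap. These means per kb rest on whole annotated exons. In controls each neighbouring pair in that order overlapped between livers except Ms4a1 (4.36 to 11.6) and Cr2 (0.630 to 2.74).

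Ratios within a liver do not depend on the scaling of libraries. The ratio of Cd22 to Ms4a1 was 0.886 to 2.48 in controls, 3.05 to 12.3 in PBC and 5.00 to 13.7 in PSC livers, so every cholangitis liver lay above every control. The ratio of Jchain to Cd79a was 0.685 to 1.85 in controls and 3.94 to 8.11 in PSC livers, with PBC livers between and overlapping both at 1.26 to 4.40. Jchain to Mzb1 was 3.82 to 5.63 in controls, 6.77 to 10.9 in PBC and 10.2 to 20.3 in PSC livers, with PSC 13 the highest. The denominators Ms4a1 and Mzb1 rest on 7 to 56 and 19 to 76 reads, and no test was made of these ratios.

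**Figure D3:**
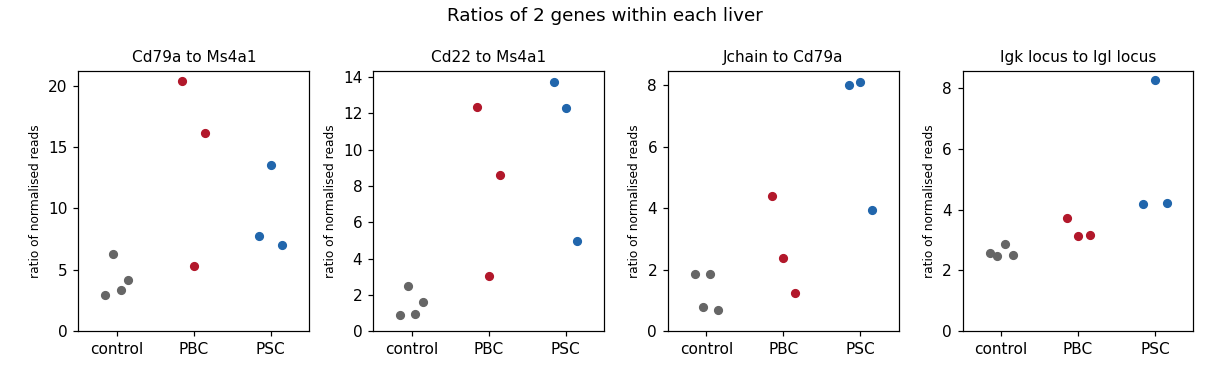
Ratio of normalised reads of a pair of genes or locus models within each liver (vertical axis, linear, from 0), 1 point per liver by group. The 3 PSC livers lie above all 4 controls in each of the 4 panels, and for Jchain to Cd79a they sit at 3.94 to 8.11 against 0.685 to 1.85.

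Livers that were high in 1 member within their group were also high in some others. Deviations of log2 values from the group means over the 10 livers had a Pearson correlation of 0.88 for Ms4a1 with Fcrla, 0.84 for Jchain with Mzb1, 0.72 for Blk with Fcrla and 0.71 for Cd79a with Cd79b. Jchain with Ms4a1 gave 0.03, and the lowest of the 36 pairs was Cr2 with Jchain at -0.69. The points share library preparation and depth, so these are descriptions. By the same measure over 11312 candidate genes, the nearest to Ms4a1 were Cyth1 (0.98), Dok2 (0.97), Naaa (0.97), the B cell scaffold Bank1 (0.96) and Ndfip2 (0.96). Nearest to Jchain were Cd160 (0.92), Ly6a (0.91), Wnt4 (0.91), Lmbr1l (0.90) and Fam109a (0.90). As the highest of 11312 candidates over only 10 livers, such values can arise by chance alone, for Bank1 as for the others.

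Many of the immunoglobulin genes that plasma cells transcribe are given as merged models, of which 1 each is used here for the heavy (Igh), kappa (Igk) and lambda (Igl) loci. The Igk model covers only part of its locus. It spans chr6:70215400-70740554, holds the kappa constant gene Igkc and overlaps 36 annotated immunoglobulin genes. Many kappa variable segments have models of their own outside it. Igh was at 1957, 1863, 5283 and 2632, then 18683, 9865 and 11268, then 3120, 4923 and 2644 normalised reads. It rose by 2.26 in PBC (SE 0.35, adjusted p = 0.00156), and Igk (2.48, SE 0.38, adjusted p = 0.00144) and Igl (2.12, SE 0.29, adjusted p = 0.000611) rose with it. No setting ended these 3 calls. In PSC the changes were 0.37 for Igh (SE 0.35, adjusted p = 0.522), 1.10 for Igk (SE 0.38, adjusted p = 0.0687) and 0.08 for Igl (SE 0.29, adjusted p = 0.877), none called. Igk passed the threshold in PSC with DESeq2 (1.14, adjusted p = 0.0236), with quality weights (1.46, adjusted p = 0.00239) and without control 3 (1.32, adjusted p = 0.0367), and Igh with quality weights (0.78, adjusted p = 0.0255). Over 20 settings the PSC change was 0.68 to 1.46 for Igk (adjusted p up to 0.293) and 0.11 to 0.78 for Igh (adjusted p up to 0.898). Igk was at 854, 638, 1581 and 1119 in controls and at 1631, 3809 and 1541 in PSC livers, with PSC 14 below control 3. PBC exceeded PSC for Igl by 2.04 (SE 0.31, adjusted p = 0.00431) and for Igh by 1.89 (SE 0.38, adjusted p = 0.0191), while Igk gave 1.38 and was not called (SE 0.41, adjusted p = 0.105; 0.0353 with DESeq2). The Igh call ended without PBC 7 (1.62, adjusted p = 0.0761), PSC 11 (1.82, adjusted p = 0.0766) or PSC 14 (1.70, adjusted p = 0.118). The ratio of Igh to Jchain was 3.95 to 5.83 in PSC livers, below the 6.27 to 15.05 of controls and the 8.68 to 13.1 of PBC livers.

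In PSC 13, the liver with the highest Jchain of its group, 1 kappa variable segment held most of the reads on such segments. Of 46 single-segment kappa models, chosen by annotation after the data were seen, Igkv4-80 had 402 of 738 reads there, 54.5% (95% exact Clopper-Pearson interval 50.8 to 58.1, counting error only). In the other 9 livers it had 0 to 8 reads and at most 2.55%, and the leading segment of each, such as Igkv10-96, held 10.03% to 22.5%. All 46 models summed to 186 to 565 normalised reads in controls, 1232 to 2355 in PBC and 362 to 1194 in PSC livers, and PSC 13 without Igkv4-80 was at 543. Igkv4-80 lies on mouse chromosome 6, chr6:69016558-69016839 on the minus strand of mm10. Among 45 segments with a model of their own and a sequence to compare, Igkv4-80 included, Igkv4-70 (chr6:69267885-69268169, minus strand) was nearest to it, with 91.1% identity. Segments inside merged models were not compared. Igkv4-70 was at 0 normalised reads in PSC 11, 13 and 14. Whether reads of other segments were placed on Igkv4-80 was not tested. The part of each annotated transcript (GENCODE M21) that lies within its model is shown.
Igkv4-80: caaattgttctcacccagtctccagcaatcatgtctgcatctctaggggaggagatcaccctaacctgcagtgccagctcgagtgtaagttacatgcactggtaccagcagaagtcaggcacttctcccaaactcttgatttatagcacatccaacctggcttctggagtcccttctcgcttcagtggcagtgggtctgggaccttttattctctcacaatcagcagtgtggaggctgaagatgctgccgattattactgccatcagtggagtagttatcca
Igkv4-70: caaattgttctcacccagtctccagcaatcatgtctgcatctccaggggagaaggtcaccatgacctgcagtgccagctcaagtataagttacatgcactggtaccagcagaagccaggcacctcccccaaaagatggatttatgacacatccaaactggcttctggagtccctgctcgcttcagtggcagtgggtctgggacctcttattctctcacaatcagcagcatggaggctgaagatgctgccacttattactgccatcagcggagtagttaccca
Igkv4-80 was a variable segment at 650 normalised reads in 1 liver of 3, so it describes that mouse and not the PSC group.

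**Figure D4:**
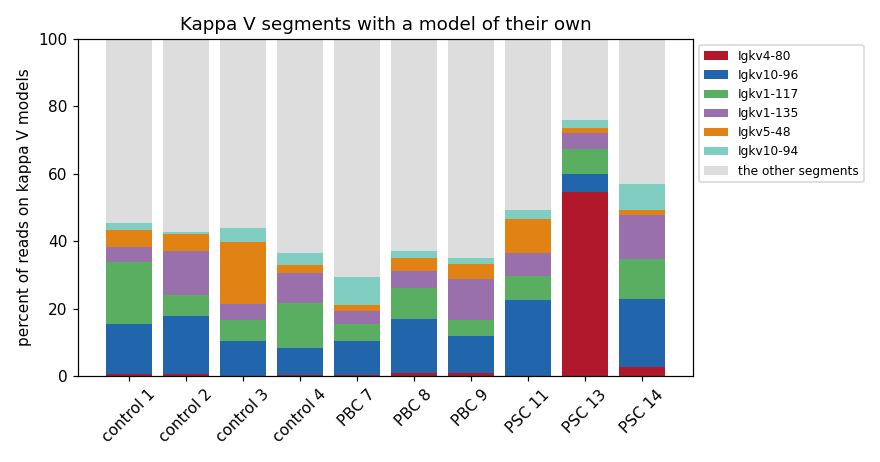
Percent of reads on 46 single-segment kappa V models (vertical axis, 0 to 100) taken by 6 named segments and by the rest, 1 bar per liver. Igkv4-80 (red) takes 54.5% in PSC 13 and at most 2.55% in each other liver.

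Other B cell genes, from a list of 15 of which 13 were tested, gave 3 higher and 0 lower in PBC, 1 higher and 1 lower in PSC, and 3 higher and 0 lower in PBC against PSC. Their median changes were 0.90, -0.22 and 1.30. Cxcr5, the receptor that leads B cells into follicles, was at 51.8, 38.5, 61.3 and 63.9, then 79.6, 112 and 110, then 11.3, 32.4 and 19.7 normalised reads, and the groups did not overlap. It fell by 1.40 on the log2 scale in PSC (adjusted p = 0.0341, and 0.0508 to 0.143 in 7 settings, among them leaving out control 1, control 3, control 4, PSC 11 or PSC 14) and was 2.30 higher in PBC than in PSC (adjusted p = 0.0143; 0.0574 without PSC 11 and 0.0667 without PSC 14). Pou2af1, a coactivator of octamer promoters, rose by 2.13 in PBC (adjusted p = 0.00204). Pou2af1 was also 1.85 higher in PBC than in PSC (adjusted p = 0.0189), as was Fcmr, a receptor for IgM, by 2.47 (adjusted p = 0.0159). The Pou2af1 difference lost its call without PBC 9 or any 1 PSC liver (adjusted p of 0.0611 to 0.0870) and the Fcmr difference without PBC 9 (adjusted p = 0.0547) or PSC 11 (adjusted p = 0.0582). Cd180, a relative of the toll-like receptors that myeloid cells also carry, rose by 1.80 in PBC (adjusted p = 0.0125; 0.0527 without PBC 9). Cd72 rose in PBC (1.16, adjusted p = 0.00362) and in PSC (1.52, adjusted p = 0.000517); Cd72 is a B cell coreceptor that macrophages can also carry. Pax5 and Spib were too low to test.

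**Figure D5:**
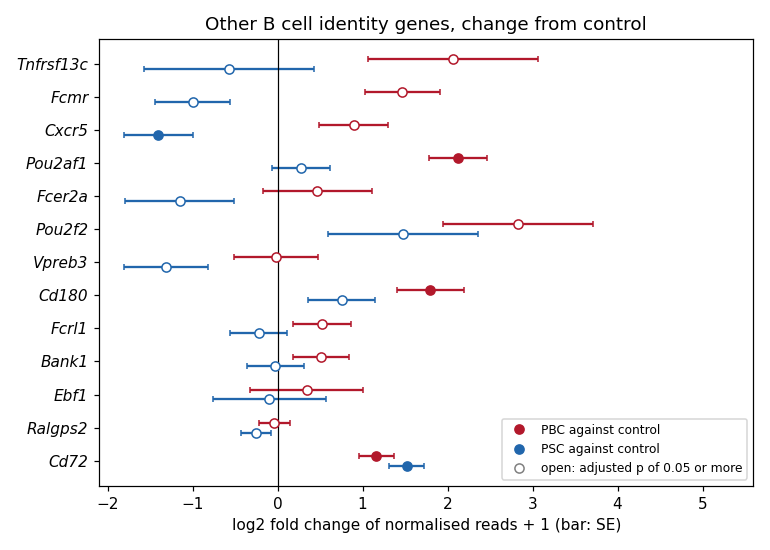
Log2 fold change of normalised reads + 1 against control (horizontal axis) of 13 tested B cell genes outside the 9 members, PBC in red and PSC in blue, with the SE from limma as bars and filled points at an adjusted p under 0.05. Filled PBC points are Pou2af1, Cd180 and Cd72, and filled PSC points are Cxcr5 (left of 0) and Cd72 (right of 0).

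Of 16 tested plasma cell and immunoglobulin genes, 4 were called higher in PBC (the 3 loci and Slamf7), and 5 higher and 1 lower in PSC. Slamf7, a receptor of plasma cells that natural killer and myeloid cells share, rose by 2.404 in PBC (adjusted p = 0.00102) and by 2.67 in PSC (adjusted p = 0.000399). Tnfrsf13b, the TACI receptor for B cell survival factors, rose by 1.45 in PSC (adjusted p = 0.00813; 0.0512 without PSC 14). The other PSC calls were Derl3 (2.29), Fkbp11 (1.10) and Prdm1 (1.20) higher and Ell2 (-1.13) lower. In controls Fkbp11 and Ell2 were at 911 to 2555 and 1688 to 2856 normalised reads, far above Mzb1 at 24.4 to 92.0. Derl3 and Prdm1 were at 20.8 to 95.0 and 36.3 to 71.5 there. In PSC 11, 13 and 14 Derl3 was at 299, 72.8 and 386, so PSC 13 lay within the controls' range. Derl3, Fkbp11, Prdm1 and Ell2 were not followed through the alternative settings. Which cells carried these changes was not tested. Xbp1 and Sdc1, which hepatocytes also express, stood at 29475 to 66456 and 5949 to 12113 normalised reads in the 10 livers and were not called. Of 15 receptor signalling genes, limma called 4 higher in each model and 0 between models (3 at an unadjusted p under 0.05). Plcg2, the phospholipase below the receptor, rose by 2.11 in PBC (adjusted p = 0.000431) and 1.36 in PSC (adjusted p = 0.00586), and the phosphatase genes Inpp5d and Ptpn6 were also called in both. Btk was the remaining call in PBC and Dapp1 in PSC, and these genes are shared with myeloid cells. Among 6 tested germinal centre genes, 0 were called by limma in PBC (2 at an unadjusted p under 0.05), and S1pr2 rose (1.20) and Bcl6 fell (-1.19) in PSC. S1pr2 and Bcl6 were at 570 to 685 and 184 to 461 normalised reads in controls, above Ms4a1 at 27.0 to 71.5. Their source among liver cells was not tested. Of 3 tested precursor genes (Rag1, Dntt and Vpreb1) limma called 0 (also 0 at an unadjusted p under 0.05), and Rag2 and Vpreb2 were at 0 in all 10 livers. The Rag1 model is merged with a neighbouring gene and was at 1251 to 2422 normalised reads, so its level may not be that of Rag1. Vpreb1 was low, at 9.86 to 25.9. These genes can therefore say little about B cell precursors.

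Signals that attract B cells or keep them alive were called in 2 of 10 tested genes in PBC and in 6 of 10 in PSC, 4 higher and 2 lower. Cxcl13, the ligand of CXCR5, was at 117, 74.5, 89.4 and 132, then 234, 2466 and 178, then 26.3, 11.3 and 21.4 normalised reads. All 3 groups were apart, and PBC 8 was far above the rest. Cxcl13 was 4.58 higher in PBC than in PSC (SE 0.75, adjusted p = 0.00669), and none of 19 settings ended that call. It fell by 2.38 on the log2 scale in PSC (SE 0.70, adjusted p = 0.0380), a call that 10 of 19 settings ended, among them leaving out any 1 control or any 1 PSC liver (adjusted p of 0.0503 to 0.131). Its PBC change of 2.21 (SE 0.70, adjusted p = 0.0625) was called without PBC 9 (adjusted p = 0.0414) and by edgeR (adjusted p = 0.0160). Without PBC 8 it was 1.01 (adjusted p = 0.0988), and PBC against PSC was then 3.39 (adjusted p = 0.00296). Ltb rose by 1.72 in PBC (adjusted p = 0.00122) and 2.21 in PSC (adjusted p = 0.000166), and Ccl19 by 1.72 and 1.35 (adjusted p = 0.00259 and 0.00870). Of 8 tested antibody receptors, the same 4 (Fcer1g, Fcgr1, Fcgr3 and Fcgr4) rose in each model.

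Markers of other cells also differed between the groups, not always in the members' direction. The summed level of 8 T cell genes was 461 to 805 normalised reads in controls, 2205 to 2725 in PBC and 514 to 613 in PSC livers, with 5, 0 and 6 genes called higher in PBC against control, PSC against control and PBC against PSC. For 7 genes of all leukocytes it was 3335 to 5372, 11230 to 16729 and 8294 to 11238, with 6, 4 and 1 called higher. The 6 genes of plasmacytoid dendritic cells, which can also express Mzb1 and Jchain, summed to 96.3 to 253, 64.7 to 115 and 131 to 366, and Klk1 alone was called, lower in PBC than in both other groups. Klk1 was at only 0 to 6.37 normalised reads in PBC livers. The list did not move as one: every PBC liver was above every control for 1 gene (Pacsin1) and below for 2 (Klk1 and Siglech). Of all tested models, 12.7% and 6.89% had those separations. Median log2 changes in PBC and in PSC against control were 1.67 and -0.38 for the T cell list, 1.66 and 1.01 for the leukocyte list and -0.99 and 0.48 for the plasmacytoid dendritic cell list, beside 1.36 and -0.23 for the members. No marker list was at 0. The part of these cells in the members' changes was not tested.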

How the data were processed

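The values the authors deposited are a signal: reads on each gene model, scaled by DESeq2, as the file's own name and the labels say. STAR 2.4.0 and mm10 stand in the submitters' processing notes as aligner and build, beside FastQC, Picard, SAMtools and DESeq2. How reads were counted, whether by strand, and how reads shared by models were treated is not given in the sources used here. Within each library 100% of values were whole multiples of 1 step (tolerance 0.1 reads), so reads were recovered by division. Models with 2 reads outnumbered those with 1 in every library, so both mates of a pair may have been counted and counting intervals are too narrow.

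Limma with an intensity trend was fitted to log2(value + 1) with all 10 libraries. Models at 10 or more in at least 3 libraries were tested (18390), and p-values were adjusted over all of them at a threshold of 0.05. The design had assumed no counts, so edgeR and DESeq2 on recovered reads were alternatives. The others changed the pseudocount, filter, scaling, weights or groups in the fit, or left out 1 library. The tools were DESeq2 1.42.0, edgeR 4.0.16 and limma 3.58.1 in R 4.3.3. In reads simulated for PBC against control over 18390 genes, limma found 17% of 100 changes of 2-fold and 96% of 100 changes of 4-fold, with 8 false calls. The simulation gave every gene the same dispersion and changed no gene with a control level as low as that of Cr2. It also changed fewer genes than were called in the data. These rates may therefore not hold for the members.

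The members, lists and tests were chosen with earlier results of these data known. Every member is named, with the 5 genes nearest to Ms4a1 and to Jchain with a mean of at least 50. The plan for each other list was up to 4 genes of smallest adjusted p and called genes against the direction of the list. Not all genes that meet this plan are named. Other genes (among them Ms4a7, Xbp1, Sdc1 and Igkv4-80) were named after their values were seen. Some genes of the planned lists are not reported here. Positions are those of the deposited table on mm10. Promoter windows are from RefSeq (GRCm38.p6) and kappa segments from GENCODE M21. Symbols of Tnfsf13, Rag1, Ccl21a and Mef2b belong to models merged with a neighbouring gene.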

Additional observations from a re-analysis of the deposited data

Results flagged for a closer look

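Cr2 in control 4 lay far from the other 3 controls: its gap to the next control was 0.849 of the controls' whole range, above the limit for 4 samples. Chance alone marks about 1 group in 20 in this way. The change from control differed between PBC and PSC, by limma's contrast of the PBC and PSC livers, for Cd79a (2.27), Cd79b (1.64) and Cd22 (1.40), each with n = 3 and 3 and with every PBC liver above every PSC liver.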

How the results depend on the processing

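The 20 alternatives gave 1250 recomputed log2 changes of named genes: 1127 kept their direction and their side of the threshold, 79 lost a call, 32 gained one and 12 changed sign, 0 of them from a called value. The number of members called was 4 in PBC against control (2 to 4 with 1 library left out, 3 to 5 otherwise). It was 3 in PSC against control (0 to 4 with 1 library left out, and 5 with DESeq2 and with quality weights). It was 3 in PBC against PSC (1 to 3 with 1 library left out, 6 with DESeq2 and 5 with quality weights). Over all models, counts of calls moved more: with 1398 higher and 430 lower in PBC against control, alternatives gave 673 to 2425 and 63 to 1803. With 1518 and 1192 in PSC against control they gave 680 to 3899 and 245 to 3404, and with 204 and 208 in PBC against PSC 61 to 658 and 43 to 701. In PBC against control, Blk changed sign with equal totals (-0.050) and Fcrla with quality weights (-0.022). With 1 library left out, sign changes came for Blk (-0.17 to 0.33) and Ms4a1 (-0.71 to 0.27) in PBC against control. In PSC against control they came for Cr2 (-0.65 to 0.31), Fcrla (-0.52 to 0.19), Mzb1 (-0.19 to 0.43) and Igl locus (-0.10 to 0.26), and in PBC against PSC for Ighg2b (-1.29 to 0.26). For all of these the cause was not tested, though a library left out also leaves fewer samples. Equal totals moved the median of all models in PBC against control by -0.13. No paired analysis was possible because the groups share no replicate numbers. Depth limits Blk and Cr2 most.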

Other observations

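The ratio of the Igk to the Igl locus model was 2.46 to 2.88 in controls, 3.13 to 3.73 in PBC livers and 4.17 to 8.26 in PSC livers, so the 3 groups did not overlap. PSC 13 was the highest, and the other PSC livers were at 4.17 and 4.23. The model of Igkv4-80 lies outside the Igk locus model. That locus model holds the kappa constant gene Igkc, so constant-region reads of transcripts that use Igkv4-80 can still count in it. Igk was at 1631, 3809 and 1541 normalised reads in PSC 11, 13 and 14. The part of Igkv4-80 transcripts in the ratio of PSC 13 was not tested. No test was made of this ratio, which was chosen after its values were seen.

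A model over Ighg2b, the constant region of the IgG2b heavy chain (chr12:113302967-113306721), lies inside the Igh locus model and was named after its values were seen. It was at 2.59, 1.28, 23.0 and 4.17 normalised reads in controls 1 to 4, 59.7, 44.6 and 40.2 in PBC 7, 8 and 9, and 55.3, 249 and 27.9 in PSC 11, 13 and 14. All 6 cholangitis livers were above the 4 controls. The change by limma was 3.10 in PBC (adjusted p = 0.0315), a call that 7 of 20 settings ended, among them leaving out control 1, control 2, control 4, PBC 7 or PBC 9 (adjusted p of 0.0526 to 0.101). In PSC it was 3.72 (adjusted p = 0.0102), which became 2.84 without PSC 13 (adjusted p = 0.0603). How the counting divided reads between these nested models is not given in the sources used here.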
